A study of Homo sapiens with 4 samples.

Results

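The mitochondrial ribosomal protein genes, whose symbols begin with MRPL (large subunit) or MRPS (small subunit) and a digit, were read out in SNU638 cells with and without knockdown of ACTL6A. Members were all probe sets annotated with 1 such symbol and no other gene. This gave 142 probe sets of 77 symbols, out of 19775 genes with a symbol of their own on the array. Of the 77, 75 encode ribosomal proteins (48 large subunit, 27 small subunit), and the others are the antisense transcript MRPL20-AS1 and the pseudogene MRPL45P2. All 75 coding genes lay above the signal threshold used for testing, a mean log2 signal of 5.63.

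SNU638 is an established human gastric cancer cell line, grown with fetal bovine serum in a medium that the sample labels give as DMEM and the study's methods as RPMI. The 2 scramble arrays came from cells with a control shRNA, and the 2 sh-ACTL6A arrays from cells with an shRNA that targets ACTL6A, both delivered by lentivirus in pLKO.1 with polybrene and followed by puromycin selection. ACTL6A is an actin-related subunit of the BAF, INO80 and TIP60 chromatin complexes, and the comparison asks which transcripts depend on it. Trizol-extracted total RNA was converted to biotin-labelled cRNA and hybridised to 1 single-colour array per sample, giving log2 signals.

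Mitochondria keep a ribosome of their own, which translates the few messages of mitochondrial DNA into membrane subunits of the respiratory chain and ATP synthase. Its RNA comes from mitochondrial DNA, whereas all of its proteins are encoded in the nucleus, made in the cytosol and imported. Part of these proteins descend from bacterial ribosomal proteins, and the rest are found only in mitochondrial ribosomes.

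The targeted gene was examined first. Signals of ACTL6A were 11.92 and 11.82 in scramble and 10.16 and 10.32 in sh-ACTL6A, and the gene fell by 1.63 on the log2 scale (SE 0.14, limma adjusted p = 0.0408). It was the only gene called among 12286 tested, a share of 0.00814%. The call was lost when either scramble array was left out and under 5 other settings, whereas the difference stayed between -1.71 and -1.55 with any array left out. The mean linear signal after trimming was 500 on every array, so the arrays carried a common scaling. The 3′ minus 5′ signal of the ACTB control probe sets, a measure of RNA integrity and labelling, ranged from 0.78 to 1.63 log2 units over the arrays, and followed the replicate number. It was 1.63 and 1.21 on the replicate 1 arrays (scramble, then sh-ACTL6A) and 0.78 on both replicate 2 arrays, and the GAPDH values were 0.29 and 0.22 against 0.10 and 0.07. The epithelial markers (5 of 5 tested) read 8.52 to 14.58, with a summed linear signal of 44870 to 51806 in scramble and 38213 to 44699 in sh-ACTL6A. Of the leukocyte markers 1 of 4 on the array was above the threshold, and of the fibroblast and endothelial markers 3 of 7. Nothing in the labels says that the arrays of each group stem from independent cultures. The p-values therefore reflect array-to-array spread, possibly of technical origin only. The study's methods name more than 1 ACTL6A hairpin, and the labels leave unsaid which each sh-ACTL6A array carried. A hairpin difference may thus be part of the spread within that group.

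Promoter sequence is shown for 8 of the genes named below, 4 of each subunit, because an ETS motif bound by GABPA, a regulator of mitochondrial genes, was found in many members of this family. The 8 were picked for holding this motif before the annotated start, among the genes with the highest and lowest differences. Others of those genes held no match (MRPL4, MRPL17, MRPL24, MRPL57, MRPS7, MRPS9 and MRPS30) or had no promoter entry (MRPL10 and MRPL35). MRPS33 held a match, but none that ended before the annotated start. The windows run 5′ to 3′ on the gene's strand (RefSeq, GRCh38.p14), with capitals marking CCGGAAG or its reverse complement CTTCCGG.
MRPL47 (chr3:179604659-179604688, minus strand): ggcttgagacgCCGGAAGtgacgctatcgt
MRPL18 (chr6:159790430-159790459, plus strand): gggacttgctaCTTCCGGgtcggtggcgtc
MRPL40 (chr22:19432515-19432544, plus strand): actgtggaggggcgcacgcCCGGAAGcggc
MRPL38 (chr17:75905074-75905103, minus strand): tccaacgggcaCTTCCGGagccgggcgtct
MRPS23 (chr17:57850045-57850074, minus strand): ttacctggagcagccgCTTCCGGttccggt
MRPS22 (chr3:139343904-139343933, plus strand): ggcCCGGAAGaCTTCCGGccctttccgcct
MRPS12 (chr19:38930924-38930953, plus strand): ctgcacggatagcgcCCGGAAGaggctaga
MRPS18A (chr6:43687804-43687833, minus strand): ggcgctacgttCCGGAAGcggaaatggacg
The MRPS22 window holds the motif in both orientations. The marked motif nearest the start ended between 4 bases (MRPL40) and 201 bases (MRPL38) before the annotated start.

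Over the 300 bases from 250 before to 50 after the start, both strands searched, CCGGAAG was present in 29 of the 67 coding members that had a promoter entry (43.3%), against 16.5% of 15842 protein-coding genes. The shares were 17 of 41 large subunit genes (41.5%) and 12 of 26 small subunit genes (46.2%). AAGATGGC, the motif of YY1, another regulator of mitochondrial genes, was present in 20 of the 67 (29.9%) against 4.66%. GCGCATGC, the NRF1 motif, was found in 6 (8.96%) against 4.89%. Of the core promoter elements, TATAAA was found in 3 members (4.48% against 12.4%) and CCAAT in 23 (34.3% against 42.1%). No test was made of these shares. The ETS and YY1 motifs occurred together in 8 members, MRPL20, MRPL38, MRPL47, MRPL51, MRPL52, MRPS10, MRPS12 and MRPS18A, and never overlapped. The median log2 difference was -0.08 in members with the ETS motif and -0.03 in those without. For YY1 the medians were 0.00 and -0.04. These matches describe letters in a window and are not evidence of binding.

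**Figure D1:**
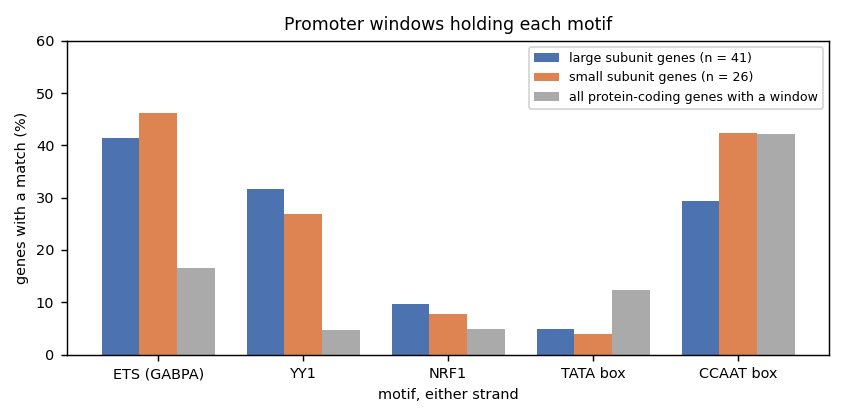
Percent of genes (vertical axis) whose 300-base promoter window holds each motif (horizontal axis), for large subunit genes, small subunit genes and all protein-coding genes with a window. The ETS motif was present in 41.5% of large and 46.2% of small subunit genes against 16.5% of all genes, and the YY1 motif in 29.9% of all members against 4.66%.

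No mitochondrial ribosomal protein gene passed the test between sh-ACTL6A and scramble. None of the 75 was called by limma, the lowest adjusted p being 0.790. At an unadjusted p under 0.05, 2 genes were lower (MRPL35 and MRPL47) and 0 were higher, where 2.3% and 3.21% of all tested genes reached that level in the same directions. The log2 differences ran from -0.50 to 0.21, with a median of -0.04 against 0.01 for all tested genes. A difference below 0 was seen in 46 of 75 members (61.3%) against 48.1% of all tested genes.

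The members differed little in size. A log2 difference of at least 0.25 in either direction was found for 6 of 75 (8%), against 28.4% of all tested genes. The members were also brighter, with a median log2 signal of 12.01 against 9.54, and other bright sets had low shares as well, 5.26% of 57 cytosolic ribosomal protein genes (median signal 14.78) and 1.56% of 64 respiratory chain and ATP synthase subunits (13.29). The 95% confidence interval lay within 0.5 log2 units of 0 for 62 of 75 members, and the median standard error was 0.128 log2 units. Both sh-ACTL6A arrays were below both scramble arrays for 14 members (18.7%, against 15.4% of all tested genes). Both were above for 5 members (6.67%, against 19.3%).

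**Figure D2:**
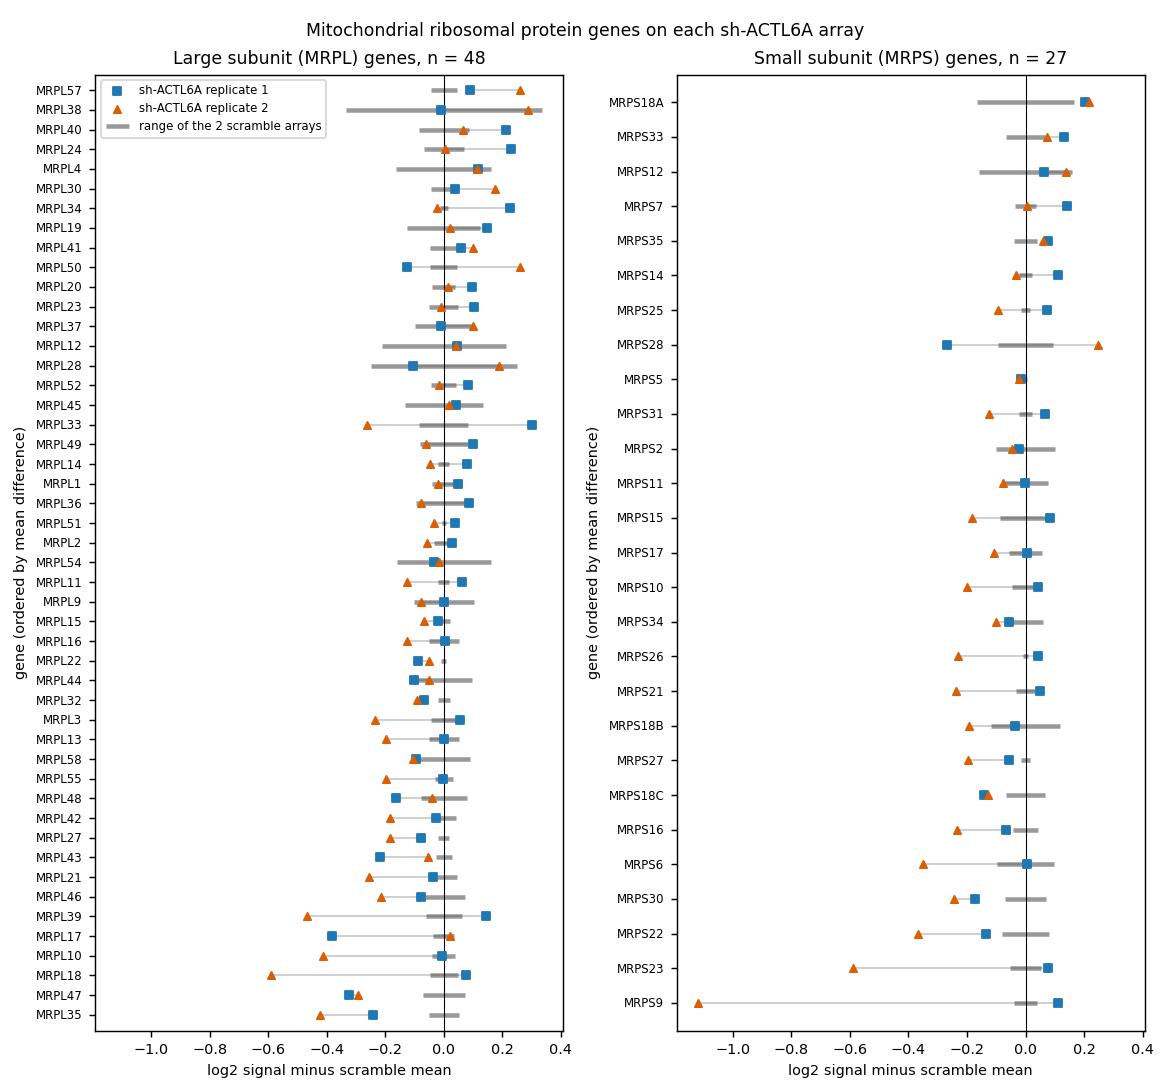
Each coding gene's log2 signal on the sh-ACTL6A arrays minus the scramble mean (horizontal axis), with genes ordered by mean difference (vertical axis) in a panel per subunit, and grey bars for the range of the 2 scramble arrays. MRPL35 and MRPL47 lie below 0 on both sh-ACTL6A arrays, whereas MRPS9, MRPL18, MRPS23 and MRPL39 lie below 0 on replicate 2 alone.

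Large and small subunit genes were compared next. Of 48 large subunit genes 25 were below 0 (52.1%), with a median log2 difference of -0.02. Of 27 small subunit genes 21 were below 0 (77.8%), with a median of -0.05. The large minus small difference was 0.03, smaller than the spread of that difference between arrays (SD 0.05). The counts below 0 depended on the setting. With probe sets of a gene averaged they were 29 of 48 and 16 of 27 (medians -0.04 and -0.03). Without scramble replicate 1 they were 31 and 17, and with median centring 23 and 17. Median centring also moved the median of all tested genes, from 0.01 to 0.04. The large and small subunit medians minus that of all tested genes stayed at -0.03 and -0.06. Both sh-ACTL6A arrays were below both scramble arrays for 8 large (16.7%) and 6 small subunit genes (22.2%), against 15.4% of all tested genes. They were above for 2 large (4.17%) and 3 small subunit genes (11.1%), against 19.3%. MRPS18A and MRPS30 carry small subunit symbols but sit in the large subunit of the assembled ribosome. With them moved, 26 of 50 large and 20 of 25 small subunit genes were below 0, and the medians were again -0.02 and -0.05.

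The sh-ACTL6A arrays did not run the same way. On replicate 1 the median log2 difference from the scramble mean was 0.02 for the large and 0.04 for the small subunit. On replicate 2 it was -0.05 and -0.12. All tested genes had medians of 0.03 and 0.02 on these arrays, and scramble replicate 1 read 0.03 (large) and 0.04 (small) above its group mean. The large minus small difference thus had opposite signs, -0.03 on replicate 1 and 0.07 on replicate 2. Small subunit genes were below the scramble mean in 11 of 27 cases on replicate 1 and in 21 of 27 on replicate 2, and large subunit genes in 21 and 33 of 48. Replicate 2 was below replicate 1 for 34 of 48 large (70.8%) and 23 of 27 small subunit genes (85.2%), against 51.4% of all tested genes. Replicate 2 minus replicate 1 had medians of -0.08 (large) and -0.14 (small), against -0.01 for all tested genes. The scramble arrays ran in the same direction, with medians of -0.07 and -0.08, against -0.02. Over the members the root mean square distance between both sh-ACTL6A arrays was 0.27 log2 units, larger than the 0.16 and 0.14 between replicate 1 and the scramble arrays. It was 0.28 and 0.22 between replicate 2 and the scramble arrays, and 0.18 between both scramble arrays. Over all tested genes the distance was 0.44 between both sh-ACTL6A arrays and 0.37 between both scramble arrays. Between an sh-ACTL6A and a scramble array it was 0.39 to 0.44. The ACTB 3′ minus 5′ signal also differed between the sh-ACTL6A arrays (1.21 on replicate 1 and 0.78 on replicate 2), and its part in the gap was not tested.

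**Figure D3:**
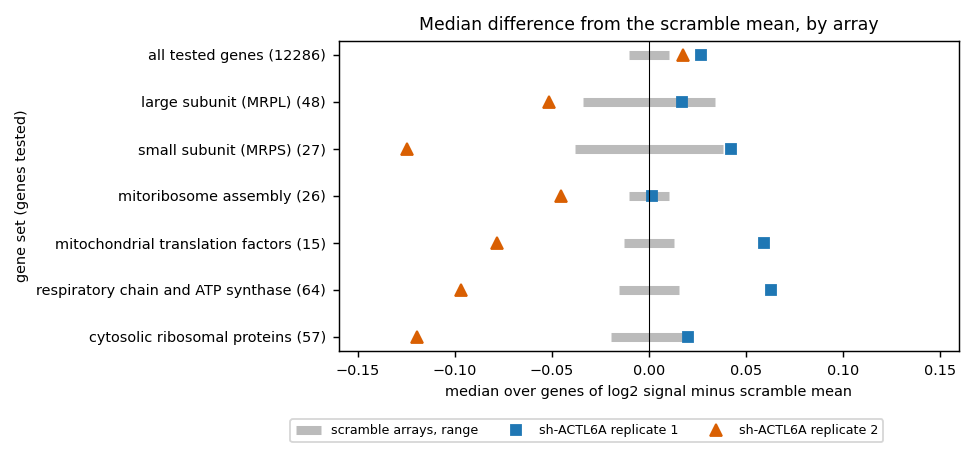
Median over the genes of each set of log2 signal minus the scramble mean (horizontal axis) for each sh-ACTL6A array, with gene sets and their tested sizes on the vertical axis and grey bars for the scramble arrays. The small subunit median is 0.04 on replicate 1 and -0.12 on replicate 2, and cytosolic ribosomal protein genes read 0.02 and -0.12.

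Proteins with a bacterial counterpart and those particular to mitochondria gave similar medians, -0.04 over 45 genes (29 below 0) and -0.03 over 30 genes (17 below 0). For the split of these classes by subunit, MRPS18A and MRPS30 were counted as large, by their place in the assembled ribosome. On that assignment the 10 small subunit genes particular to mitochondria had a median of -0.09, with 8 below 0. They read lower on replicate 2 than on replicate 1 in 10 of 10 cases. The 20 large subunit genes particular to mitochondria had a median of 0.01, with 9 below 0, and read lower on replicate 2 in 10 of 20 cases.

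Among large subunit genes, MRPL47 and MRPL35 had the lowest values. MRPL47, which encodes a protein near the exit of the peptide tunnel, read 13.39 and 13.25 in scramble and 13.00 and 13.03 in sh-ACTL6A. Both sh-ACTL6A arrays lay below both scramble arrays. The difference was -0.31 ± 0.10 (SE; 95% confidence interval -0.54 to -0.08), a change of -19.2% in linear signal, and it did not pass the test (limma adjusted p = 0.790). A second, dimmer MRPL47 probe set showed a wider gap, from 7.94 and 7.84 to 6.43 and 6.56, a difference of -1.39 ± 0.25 (limma adjusted p = 0.960 over all probe sets).

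MRPL47 is the protein-coding gene that follows ACTL6A on chromosome 3, an adjacency noticed after the values were seen. Other neighbours in gene order read 0.05 (NDUFB5, a complex I subunit), 0.15 (USP13, a deubiquitinase), 0.10 (MFN1, a mitochondrial fusion GTPase) and -0.17 (ZNF639, a zinc finger protein). None of these 4 passed the test, nor did TTC14, the remaining tested gene within 5 on either side. KCNMB3, GNB4, PEX5L and PIK3CA, also within that distance, were not tested.

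MRPL35, a protein with a bacterial counterpart, read 12.02 and 11.92 in scramble and 11.73 and 11.55 in sh-ACTL6A. Its groups did not overlap, and the difference was -0.33 ± 0.13 (SE; limma adjusted p = 0.862). The remaining MRPL35 probe sets gave -0.10 and -0.20, with overlapping groups. The probe set behind the -0.33 is of a type that can also match other genes.

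A further set of genes was low on 1 sh-ACTL6A array only. MRPS9, a small subunit protein with a bacterial counterpart, read 11.59 and 11.51 in scramble, 11.66 on sh-ACTL6A replicate 1 and 10.43 on replicate 2. This gave the lowest mean difference of the family (-0.50 ± 0.34, SE). MRPL18, the counterpart of a bacterial protein that binds the small ribosomal RNA of the large subunit, read 12.99, 12.89, 13.01 and 12.35 in the same order. MRPS23, a small subunit protein particular to mitochondria, read 12.83, 12.73, 12.86 and 12.19. In each case replicate 1 was above both scramble arrays and replicate 2 below them. MRPL39, which resembles a tRNA synthetase, showed the same order (12.42, 12.30, 12.51 and 11.89).

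With sh-ACTL6A replicate 1 left out, limma called 4 members lower, in a fit where 2.12% of all tested genes were called lower. They were MRPS9 (-1.12, adjusted p = 0.000493), MRPL18 (-0.59, adjusted p = 0.00523), MRPS23 (-0.59, adjusted p = 0.00679) and MRPL39 (-0.47, adjusted p = 0.0383). This fit rests on a lone knockdown array, which is assumed to vary as the scramble arrays do. With replicate 2 left out 0 members were called, and 2 lower and 1 higher had an unadjusted p under 0.05, in a fit where 12.6% of all tested genes reached that level and limma called 241 genes lower and 94 higher. Opposite deviations on the sh-ACTL6A arrays also occurred for MRPL33 (0.30 on replicate 1 and -0.26 on replicate 2) and MRPS28 (-0.27 and 0.25).

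**Figure D4:**
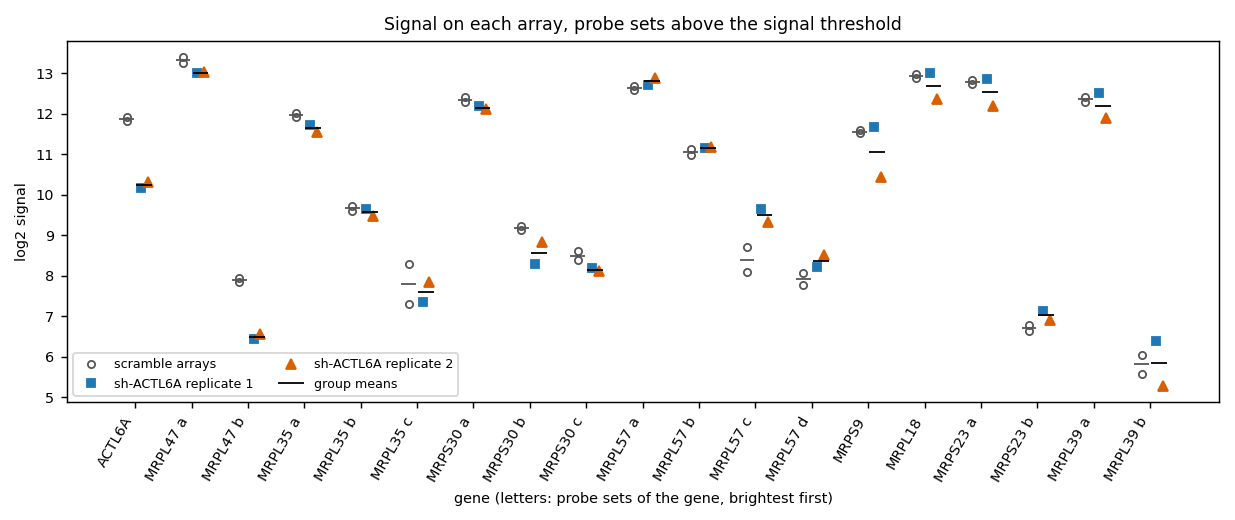
Log2 signal (vertical axis) on each array for ACTL6A and 8 mitochondrial ribosomal protein genes (horizontal axis, with letters for the probe sets of a gene from brightest to dimmest), with short lines for group means. ACTL6A and both MRPL47 probe sets are lower on each knockdown array than on each scramble array, and MRPS9 separates the sh-ACTL6A arrays, at 11.66 and 10.43.

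Other large subunit genes with low values were MRPL10 (-0.21), a protein of the stalk that receives translation factors, and MRPL17 (-0.18). Each was low on 1 sh-ACTL6A array only. MRPL10 was -0.01 on replicate 1 and -0.41 on replicate 2, and MRPL17 was -0.38 on replicate 1 and 0.02 on replicate 2. MRPL12, the stalk protein carried by MRPL10, differed by 0.04. MRPL3, a core protein near the peptidyl transferase centre, differed by -0.09. MRPL44, which has a ribonuclease III fold, differed by -0.08, and MRPL45, which lies at the tunnel exit toward the inner membrane, by 0.03. MRPL58, a peptidyl-tRNA hydrolase that frees stalled ribosomes, differed by -0.10. None of these genes passed the test.

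The highest large subunit values were small. MRPL57, a protein particular to mitochondria, read 12.67 and 12.58 in scramble and 12.72 and 12.89 in sh-ACTL6A, a difference of 0.17 ± 0.11 (SE). Both sh-ACTL6A arrays were above both scramble arrays, but the test was not passed (limma adjusted p = 0.921). MRPL38 (0.14), MRPL40 (0.14), MRPL24 (0.12) and MRPL4 (0.11), a protein of the tunnel wall, followed, each with overlapping groups.

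In the small subunit, MRPS22, a protein altered in inherited disorders of mitochondrial translation, read 12.27 and 12.11 in scramble and 12.06 and 11.82 in sh-ACTL6A. Its groups did not overlap, and the difference was -0.25 ± 0.13 (SE; limma adjusted p = 0.918). The remaining MRPS22 probe sets gave -0.14, -0.07 and -0.12, with overlapping groups. All MRPS22 probe sets are of a type that can also match other genes. MRPS30 read 12.42, 12.28, 12.18 and 12.11 (-0.21), and its dimmer probe sets gave -0.63 and -0.34. MRPS27, a pentatricopeptide repeat protein, differed by -0.13, also without overlap. A dim MRPS27 probe set, below the signal threshold, read 4.87, 5.06, 2.83 and 3.14.

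Higher values in the small subunit were likewise small. MRPS18A read 10.30 and 10.63 in scramble and 10.67 and 10.68 in sh-ACTL6A, a difference of 0.21 ± 0.16 (SE). Its paralogs MRPS18B (-0.11) and MRPS18C (-0.13) had values below 0, and a further MRPS18A probe set gave -0.09. MRPS33 (0.10), MRPS12 (0.10), a decoding site protein whose bacterial counterpart is altered in streptomycin resistance, and MRPS7 (0.07), of the small subunit head, completed the upper end. MRPS36 is not analysed here under that symbol. KGD4, the current symbol of that gene, differed by -0.07.

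Probe sets of the same gene did not always read alike. Of the 140 coding probe sets, 131 were above the threshold. Tested with every probe set on the array (0% of which were called), 0 were called and 6 had an unadjusted p under 0.05, of which 5 were lower and 1 higher, where 5.01% of all probe sets reached that level. Among 33 genes with several probe sets above the threshold, 17 had the same sign in all, and the median range within a gene was 0.23 log2 units. The range was widest for MRPL47 (1.08). MRPL57 followed, because a dim probe set of a type that can also match other genes read 8.09 and 8.70 in scramble and 9.66 and 9.32 in sh-ACTL6A (1.09), whereas the other MRPL57 probe sets gave 0.17, 0.12 and 0.46.

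MRPL12, MRPS23 and MRPS15 changed sign between probe sets. The dimmer MRPL12 probe set gave -0.61 and the dimmer MRPS23 probe set 0.32. Those of MRPS15, a protein with a bacterial counterpart, gave -0.05, -0.06, 0.14 and 0.49. MRPL45P2 stayed below the threshold (4.04 and 4.16 in scramble, 1.23 and 4.55 in sh-ACTL6A), and MRPL20-AS1 differed by 0.12.

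Genes that work with the mitochondrial ribosome were read from lists of the pathway, and 0 genes were called by limma in any of them. The ribosomal proteins under other symbols were DAP3 (-0.03), CHCHD1 (-0.04), GADD45GIP1 (0.04) and PTCD3, which read 11.52 and 11.54 in scramble and 11.40 and 11.05 in sh-ACTL6A (-0.30, limma adjusted p = 0.918). Ribosome assembly and RNA modification factors had a median of -0.03 (14 of 26 below 0), with MTG1, an assembly GTPase, at -0.33 and MTERF3 at 0.21. Translation factors had a median of -0.01 (8 of 15 below 0), with the initiation factor MTIF2 at -0.21 and the translational activator TACO1 at 0.26.

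Factors of mitochondrial DNA transcription and replication had a median of -0.05 (7 of 10 below 0), with TFB2M at -0.20 and the DNA polymerase POLG at 0.18. Regulators of mitochondrial biogenesis had a median of 0.07 (3 of 8 below 0), with MYC at -0.17 and GABPA at 0.15. Nuclear-encoded subunits of the respiratory chain and ATP synthase, the partners of the proteins this ribosome makes, had a median of -0.02 (41 of 64 below 0). Of these, NDUFAB1 differed by -0.18 and NDUFB11 by 0.17.

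The gap between the sh-ACTL6A arrays was also present outside the mitochondrial ribosome. Respiratory chain and ATP synthase subunits had medians of 0.06 on replicate 1 and -0.10 on replicate 2, and translation factors 0.06 and -0.08. Cytosolic ribosomal protein genes, which form the other ribosome of the cell, had a median of -0.05 (48 of 57 below 0), with 0.02 on replicate 1 and -0.12 on replicate 2. Whether the hairpin, the culture, RNA integrity and labelling or the array underlay the gap cannot be told apart with 1 array each.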

How the data were processed

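The authors deposited log2 signals per probe set for 4 Affymetrix arrays. MAS5 is the tool named in the submitters' processing notes (version not given in the sources). It summarises and scales each array alone. Dim probe sets varied widely between arrays. Values were used as deposited.

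Probe sets were named from the platform's annotation, and 4 naming a member together with another gene were left out. Each gene was represented by its probe set with the highest mean signal and kept at or above a mean of 5.63, the 50th percentile of non-control probe sets, and 12286 genes were tested. The sh-ACTL6A minus scramble difference was tested 2-sided with limma 3.58.1 in R 4.3.3, using eBayes with its intensity trend. P-values were adjusted by Benjamini-Hochberg across all tested genes, at a threshold of 0.05. Precision is limited by the small number of arrays (2 per group). The fit was tested on simulated data. Groups came from the sample labels. Set medians were not tested.

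The members and gene lists were chosen with earlier results of these data known. Genes named were the 5 highest and 5 lowest large subunit and 4 highest and 4 lowest small subunit genes, 13 chosen by role, the 5 whose probe sets differed most, mitochondrial ribosomal proteins under other symbols and 2 per list by the smallest p. MRPL33, MRPL39, MRPS28 and the neighbours of ACTL6A were added after their values were seen. Promoters came from RefSeq (GRCh38.p14). Shared replicate numbers were not treated as pairs, since the labels give no shared culture. Alternatives were quantile normalization, median centring, other filters, the mean of probe sets, an offset, no trend, a replicate block, the methods' t-test, every probe set and leaving out each array. When an array was left out, the probe sets and filter of all 4 arrays were kept, an implementation put in place of fresh selection after the values of both were seen. Fresh selection is given as an added alternative.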

Additional observations from a re-analysis of the deposited data

How the results depend on the processing

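With 2 arrays per group, single arrays moved several values. The ACTL6A difference stayed between -1.71 and -1.55 with an array left out, but its call was lost without scramble replicate 1 or 2. It was also lost after quantile normalization (-1.64), and, at -1.63, with no filter, no intensity trend, the t-test or every probe set. With the replicate number as a block ACTL6A differed by -1.63 and stayed called, 0 members were called, and 2 had an unadjusted p under 0.05. In that fit 7.24% of all tested genes reached that level. The block called 2 genes of all tested in place of 1. Deviations of arrays with the same number correlated at 0.26 across members and 0.056 across all tested genes, over only 2 pairs. With an array left out, members called ranged from 0 to 4 (4 only without sh-ACTL6A replicate 1), members with an unadjusted p under 0.05 from 0 to 14 (without sh-ACTL6A replicate 1, where 14.99% of all tested genes reached that level, and 15 with probe sets chosen again), their probe sets from 2 to 16, and genes called in the other lists from 0 to 3. The small subunit median ranged from -0.12 to 0.042 and the large minus small difference from -0.025 to 0.073. Choosing probe sets and filter again without sh-ACTL6A replicate 1, an alternative added after seeing the data, called 296 genes lower and 168 higher of 12302, against 260 and 141 of 12286 with the original choice, and the same 4 members. Members with an unadjusted p under 0.05 numbered 0 with median centring, no trend and the t-test. In those fits 5.18%, 5.62% and 5.47% of all tested genes reached that level. With the mean of all probe sets 4 members did, against 5.07% of all tested genes. With no trend 3 member probe sets did. Median centring moved the large subunit median to 0.01 and the median of all tested genes to 0.04. The large subunit median minus that of all tested genes stayed at -0.03. Signs turned for CHCHD1 after quantile normalization (0.0010), with median centring for DAP3 (0.0060) and MRPS28 (0.020), and with the mean of all probe sets for DAP3 (0.12), GADD45GIP1 (-0.12), MRPL12 (-0.28), MRPS15 (0.13), MRPS18B (0.0037) and MRPS23 (0.030). They also turned with an array left out, where the range was -0.061 to 0.0095 for DAP3, -0.0044 to 0.31 for GABPA, -0.0056 to 0.079 for GADD45GIP1, -0.17 to 0.25 for MRPL12, -0.38 to 0.021 for MRPL17, -0.59 to 0.074 for MRPL18, -0.24 to 0.055 for MRPL3, -0.19 to 0.47 for MRPL38, -0.048 to 0.28 for MRPL4, -0.17 to 0.021 for MRPL44, -0.10 to 0.16 for MRPL45, -0.059 to 0.26 for MRPS12, -0.18 to 0.082 for MRPS15, -0.23 to 0.0046 for MRPS18B, -0.59 to 0.076 for MRPS23, -1.12 to 0.11 for MRPS9, -0.36 to 0.027 for MYC, -0.47 to 0.15 for MRPL39, -0.26 to 0.30 for MRPL33, -0.27 to 0.25 for MRPS28, -0.18 to 0.045 for KGD4, -0.047 to 0.15 for NDUFB5 and -0.092 to 0.39 for USP13. The cause was not tested.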
